A study of Mus musculus with 4 samples.

Results

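The genes described here are 32 genes of G2 and mitosis, taken by name from the deposited read table of 46517 genes, and all 32 were found. They were measured by RNA sequencing in invariant natural killer T (iNKT) cells, T cells with a semi-invariant receptor for lipids presented by CD1d, sorted from mouse thymus. All libraries came from the strain C57BL/6J and from the gate CD24-NK1.1-T-bet-, which the labels call stage 1, an early stage with many dividing cells. Of the 4 libraries, 2 were labelled Control and 2 Prmt5 KO. The genotype of Prmt5 KO was Prmt5 flox/D with Cd4-Cre. Both Control libraries are listed with Prmt5 flox/D and with Prmt5 flox/+ Cd4-Cre, and the labels do not say which library had which. The meaning of D and the age of the mice are not in the labels. Cd4-Cre acts from the double-positive thymocyte stage on, so a deletion would be older than the sorted stage. Whether it took place in the sorted cells was not checked here. No label ties a library to a mouse of its own. The p-values reflect library-to-library spread alone, and that spread may be technical. PRMT5 places symmetric dimethyl groups on arginines, and the comparison asked how its loss changes the transcripts of these cells.

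Mitosis is driven by the kinase CDK1 with cyclins A and B. It is carried out by kinetochores, which join chromosomes to spindle fibres, and by motor proteins, and it is watched by the spindle checkpoint, which holds back the anaphase-promoting complex until all chromosomes are attached. The transcripts of these proteins accumulate in G2 and mitosis and are low in resting cells, so their sum is commonly read as a sign of how many cells are dividing. Their promoters are known for a short element called CHR (TTTGAA) and for CCAAT boxes, bound by NF-Y. Through the CHR the DREAM complex, which the inhibitor p21 favours, keeps the genes silent, and B-MYB with FOXM1 turns them on.

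Promoter windows from RefSeq on GRCm38.p6, of 250 bases before and 50 bases after a start site, were at hand for 28 of the 32 genes. For 23 of the 28, the end of the window lay in a GENCODE M21 transcript of the gene. A CHR on either strand (TTTGAA or its complement) lay in 20 of these 28 windows, or 71.4%, against 17.9% of all 32851 windows of the same length and 11.7% of the 10405 windows of genes tested. A CCAAT box on either strand (CCAAT or ATTGG) lay in 23 windows, or 82.1%, against 37.4% of all windows, and 19 windows, or 67.9%, had both, against 6.95%. A CHR and a CCAAT box can share at most 1 base, at their ends. Of the 25 CHR matches 19 lay within 50 bases of the start site, and of the 58 CCAAT matches 55 lay before it. The genes were picked for their place in the cell cycle, so the shares describe them and are not a test. Shown here are Cdk1 as the central kinase, the 3 genes with a window among the 4 with the smallest p, and the 2 genes with the highest fold change, Kif4 and Nuf2. Each stretch runs 5′ to 3′ on the gene's strand, from 200 bases before the start site to the 30th base of the transcript, and capitals mark CHR and CCAAT letters.
Cdk1, chr10:69352883-69353112, minus strand: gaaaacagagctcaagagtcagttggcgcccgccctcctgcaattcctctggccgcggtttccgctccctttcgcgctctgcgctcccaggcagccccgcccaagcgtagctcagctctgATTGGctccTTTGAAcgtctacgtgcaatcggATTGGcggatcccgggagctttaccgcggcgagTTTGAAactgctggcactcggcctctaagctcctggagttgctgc
Ccnb2, chr9:70421525-70421754, minus strand: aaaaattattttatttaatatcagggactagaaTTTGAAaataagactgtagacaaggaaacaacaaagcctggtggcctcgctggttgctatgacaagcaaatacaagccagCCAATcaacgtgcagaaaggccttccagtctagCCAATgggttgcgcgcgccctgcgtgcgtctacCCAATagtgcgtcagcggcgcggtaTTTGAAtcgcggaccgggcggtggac
Cdca3, chr6:124829976-124830205, plus strand: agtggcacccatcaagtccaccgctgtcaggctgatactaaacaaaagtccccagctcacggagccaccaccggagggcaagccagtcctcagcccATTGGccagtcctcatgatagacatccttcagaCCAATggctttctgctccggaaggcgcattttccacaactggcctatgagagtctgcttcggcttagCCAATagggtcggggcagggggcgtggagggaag
Birc5, chr11:117849037-117849266, plus strand: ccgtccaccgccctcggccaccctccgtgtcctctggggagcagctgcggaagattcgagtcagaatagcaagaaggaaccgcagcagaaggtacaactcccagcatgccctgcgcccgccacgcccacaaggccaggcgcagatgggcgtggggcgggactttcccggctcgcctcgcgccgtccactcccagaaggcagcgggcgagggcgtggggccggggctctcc
Kif4, chrX:100625865-100626094, plus strand: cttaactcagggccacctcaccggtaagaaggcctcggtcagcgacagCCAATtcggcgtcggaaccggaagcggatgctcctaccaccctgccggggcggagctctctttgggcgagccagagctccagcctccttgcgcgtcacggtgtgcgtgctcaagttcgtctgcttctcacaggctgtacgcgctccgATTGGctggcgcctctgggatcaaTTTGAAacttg
Nuf2, chr1:169531435-169531664, minus strand: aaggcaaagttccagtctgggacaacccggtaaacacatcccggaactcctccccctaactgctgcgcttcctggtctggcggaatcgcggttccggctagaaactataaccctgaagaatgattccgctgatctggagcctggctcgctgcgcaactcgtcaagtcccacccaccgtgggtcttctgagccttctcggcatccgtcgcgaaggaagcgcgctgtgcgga
Cdk1 and Ccnb2 carry CCAAT boxes upstream of a CHR close to the start site, and so does Kif4, whose level was higher in Prmt5 KO. In Cdca3 the CHR begins 30 bases past the start site, just after the printed stretch. The stretches of Cdca3 and Kif4 lie inside the gene models, which start at 124829547 and 100625737, so the starts of these models are not covered. The windows of Birc5 and Nuf2 hold neither set of letters, which says only that these letters are not there.

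Each library had 4600799 to 13240293 reads on exons, and Prmt5 KO 1 was the deepest. Levels are TMM-scaled CPM of exon reads, and a negative log2 fold change means a lower level in Prmt5 KO. The targeted gene Prmt5 was at 98.3 and 99.8 CPM in Control and at 86.7 and 119 CPM in Prmt5 KO, and since the table holds no reads per exon, this checks nothing about the deletion. Of the 8 T and iNKT marker genes all had reads in each library, at a summed 3258 to 4788 CPM. Of these, 2 were lower and 3 higher in both Prmt5 KO libraries, beside 19% and 20.5% of all genes tested. None passed an adjusted p of 0.05 in edgeR. Cd3e was lower, at 853 and 787 CPM in Control and at 287 and 572 CPM in Prmt5 KO, and so was Il2rb. Zbtb16 was higher, at 189 and 145 CPM against 350 and 253 CPM, as were Slamf6 and Cd4. Cd3d, Cd3g and Gata3 overlapped. Lists of markers of other cell types had reads too. The 7 B cell genes summed to 154 and 118 CPM in Control and to 50.5 and 45.5 CPM in Prmt5 KO. Nearly all of it was Ighm, and 2 of the 7 were at 0 reads in all 4 libraries (Ms4a1 among them). Cd79b was higher in both Prmt5 KO libraries, at 0 and 0 CPM in Control and at 0.136 and 3.94 CPM in Prmt5 KO. So was Pax5, at 0 reads in Control and at 1 and 2 reads in Prmt5 KO. Cd79a and Blnk overlapped, at 0 to 3 reads. The 7 myeloid genes summed to 95.1 and 162 CPM in Control and to 63.8 and 156 CPM in Prmt5 KO. Most of it was Cst3, whose groups overlapped, and Lyz2, Adgre1 and Cd14 were at 0 throughout. Itgam was higher in both Prmt5 KO libraries, at 1.77 and 0 CPM in Control and at 12.4 and 7.09 CPM in Prmt5 KO. So was Cd68, at 0 and 0.939 CPM in Control and at 1.83 and 0.984 CPM in Prmt5 KO. Csf1r overlapped, at 0 to 3 reads. The 7 NK cell genes summed to 60.2 and 64.1 CPM in Control and to 63.5 and 163 CPM in Prmt5 KO. Ncr1 was at 0 throughout. Fcer1g was the largest part in Prmt5 KO, at 53.8 and 136 CPM against 12.9 and 30.0 CPM in Control. Of the 4 NK cell genes tested, it alone had a log2 fold change above 0, and none passed an adjusted p of 0.05. Gzma was lower in both Prmt5 KO libraries, at 1.76 and 0.788 CPM against 6.73 and 7.04 CPM. Klrb1c and Klra3 overlapped, with log2 fold changes of -1.62 and -0.53. The Klrb1c values were 36.8 and 13.1 CPM for Control, against 2.91 and 13.8 CPM for Prmt5 KO. Eomes, not tested, was higher in both Prmt5 KO libraries, at 4.33 CPM or less. Thymocytes at the double-positive stage also divide. Their 10 markers summed to 90.1 and 101 CPM in Control and to 167 and 108 CPM in Prmt5 KO. Rag1 and Rag2 were at 0 or 1 read. Themis was higher in both Prmt5 KO libraries, at 39.5 and 43.2 CPM in Control and at 97.7 and 81.7 CPM in Prmt5 KO. So were Cd8a, at 0 and 1.88 CPM against 7.93 and 4.13 CPM, and Cd24a, at 0 and 0 against 5.56 and 2.56 CPM. Cd1d1, at 45.3 and 43.9 CPM against 35.1 and 19.1 CPM, and Dntt were lower in both. Cd8b1 was at 3.90 and 9.16 CPM in Control, at 13.7 CPM in Prmt5 KO 1 and at 0.394 CPM in Prmt5 KO 2. Arpp21, not tested, was at 0 and 0.235 CPM in Control, at 5.69 CPM in Prmt5 KO 1 and at 0 in Prmt5 KO 2. Ptcra was at 0 or 1 read. Of the 5 tested, 4 had a log2 fold change above 0 and 1 below, and none passed an adjusted p of 0.05. The part of such cells in the results below was not tested.

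Most G2 and mitosis genes had lower values in Prmt5 KO, but none passed the test. The 32 genes summed to 4418 and 4253 CPM in Control and to 3418 and 2716 CPM in Prmt5 KO, so both Prmt5 KO libraries lay below both Control libraries. The mean ± SD was 4335 ± 117 and 3067 ± 496 CPM (n = 2 each), a ratio of 0.707. Hmgb2 alone made up 1141 CPM of the Control mean and 715 CPM of the Prmt5 KO mean. An exact permutation test on 2 against 2 libraries cannot give a two-sided p below 0.333. In such bulk libraries fewer dividing cells and less of these transcripts per dividing cell cannot be told apart.

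**Figure D1:**
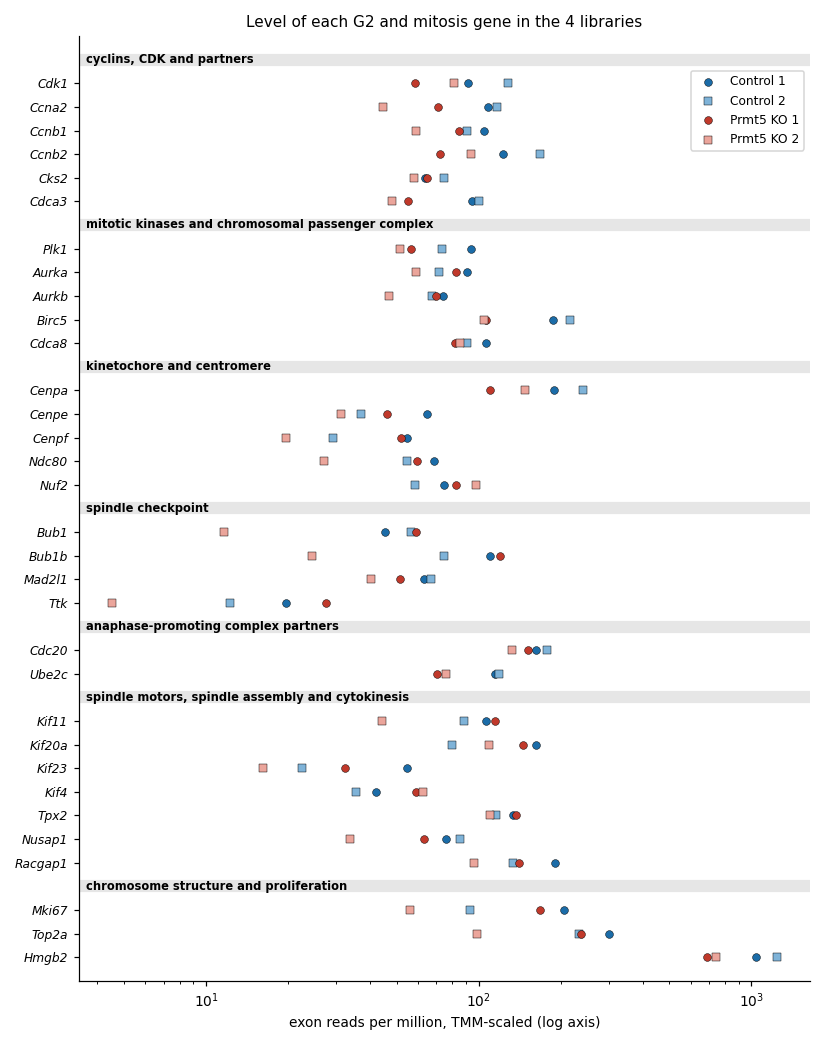
Exon CPM on a log axis for each of the 32 genes, grouped by role, with 1 point per library (blue for Control, red for Prmt5 KO, circles for replicate 1 and squares for replicate 2). Prmt5 KO 2 was the lowest of the 4 libraries for 23 of the 32 genes, and for 28.5% of all genes tested.

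All 32 genes passed the filter on low counts, and 28 of them had a log2 fold change below 0, where 50% of the 10775 genes tested did. Their median was -0.44, against -0.00028 over all genes tested. In edgeR's quasi-likelihood test with Benjamini-Hochberg adjustment over all genes, 0 of the 32 passed an adjusted p of 0.05 in either direction. Over all genes 0.00928% were called lower and 0% higher in this fit. DESeq2, which called 0.898% of all genes higher and 0.753% lower, also called 0 of the 32. At an unadjusted p under 0.05 edgeR had 4 of the 32 lower and 0 higher, beside 3.95% and 4.62% of all genes, and the smallest adjusted p was 0.412. For 14 genes both Prmt5 KO values lay below both Control values, and for 2, Nuf2 and Kif4, above both. Such separation was downward for 19% and upward for 20.5% of all genes tested. The size of the shift rested on single libraries. Without Prmt5 KO 2 the median was -0.16 with 21 genes below 0, without Control 1 it was -0.27 with 22, and without Prmt5 KO 1 it was -0.69 with 30.

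**Figure D2:**
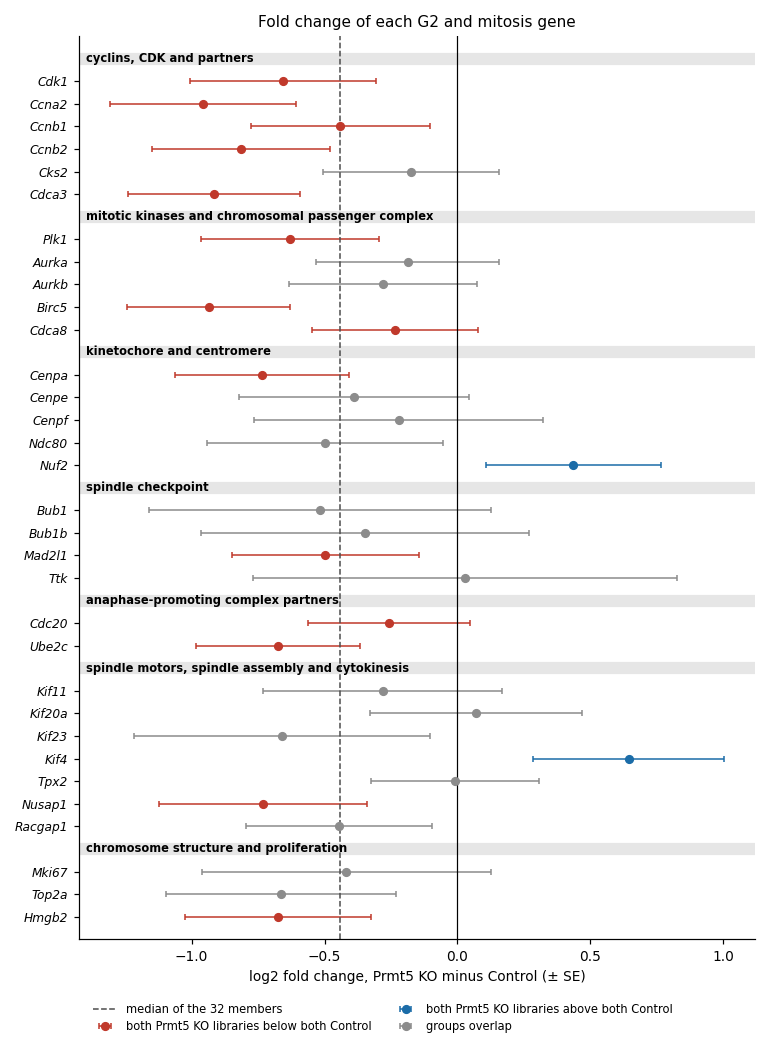
Log2 fold change (Prmt5 KO minus Control, edgeR, bars ± SE) of the 32 genes by role, coloured by whether the libraries of the groups overlap. The dashed line is the median of -0.44, and the 2 genes above both Control libraries are Nuf2 at 0.44 and Kif4 at 0.64.

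The cyclins and their kinase were the role with the lowest median, -0.74, and 6 of 6 were below 0. Summed, the 6 genes were at 585 and 679 CPM in Control and at 406 and 385 CPM in Prmt5 KO. Ccna2, cyclin A2, which acts from S phase into early mitosis (chromosome 3, 36564865 to 36572150 on mm10), was at 108 and 117 CPM in Control and at 70.8 and 44.7 CPM in Prmt5 KO. Both Prmt5 KO libraries were below both Control libraries, and its log2 fold change of -0.96 ± 0.35 (SE) was the lowest of the 32, with an unadjusted p of 0.0232 and an adjusted p of 0.462 in edgeR. Ccnb2, cyclin B2, was at 123 and 168 CPM in Control and at 71.9 and 93.5 CPM in Prmt5 KO (-0.81 ± 0.34, adjusted p = 0.527). Its groups also stood apart, with Prmt5 KO 1 the lowest. Ccnb1, cyclin B1, which carries CDK1 into the nucleus at the onset of mitosis, was at 105 and 90.6 CPM in Control and at 85.0 and 58.9 CPM in Prmt5 KO (-0.44 ± 0.34). The groups were apart by less than the Prmt5 KO libraries differed between themselves. Cdk1 was at 91.5 and 129 CPM in Control and at 58.3 and 81.5 CPM in Prmt5 KO (-0.66 ± 0.35, adjusted p = 0.657). Cdca3, a regulator of entry into mitosis, was at 94.4 and 100.5 CPM in Control and at 55.1 and 48.0 CPM in Prmt5 KO. Here both libraries of a group were close together, and the log2 fold change of -0.92 ± 0.32 stayed between -1.01 and -0.82 under the 14 alternatives. Cks2, a small adaptor of CDKs, was at 63.7 and 74.6 CPM in Control and at 64.7 and 57.9 CPM in Prmt5 KO, so its groups overlapped. Only 30.3% of its exon reads were unique to it, and its log2 fold change was -0.17 with all reads, -0.62 with unique reads and 0.21 with the length trend described below removed, so its level is uncertain.

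**Figure D3:**
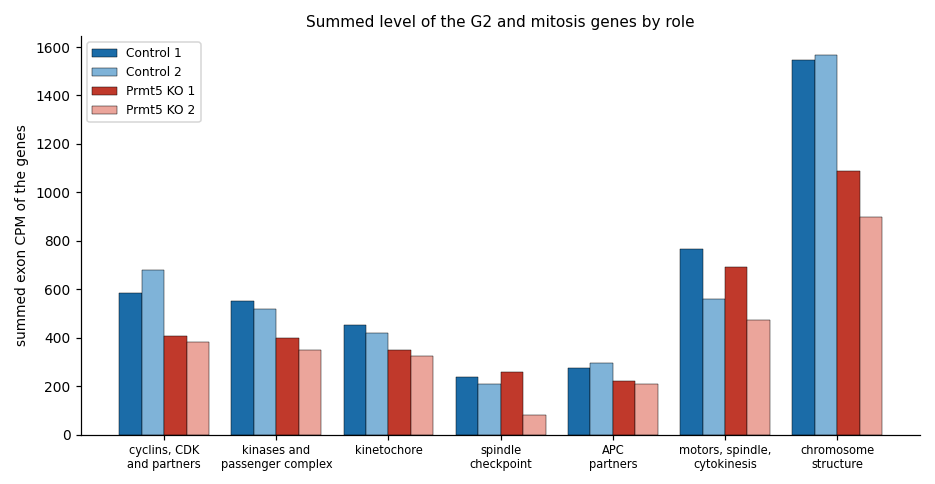
Summed exon CPM of the genes of each role, with 1 bar per library. The cyclin group was at 585 and 679 CPM in Control and at 406 and 385 CPM in Prmt5 KO, while the spindle checkpoint group was at 258 CPM in Prmt5 KO 1 and at 80.9 CPM in Prmt5 KO 2.

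The mitotic kinases and the chromosomal passenger complex, which corrects faulty attachments at the inner centromere, were below 0 in 5 of 5 genes, with a median of -0.28. Birc5, survivin, the subunit that brings the complex to the centromere (chromosome 11, 117849251 to 117855743), had the smallest p of the 32. It was at 187 and 216 CPM in Control and at 106 and 105 CPM in Prmt5 KO (202 ± 20.6 and 106 ± 1.18, mean ± SD, n = 2 each). The groups stood far apart relative to the spread within each, and the log2 fold change was -0.93 ± 0.31 (adjusted p = 0.412, edgeR), between -1.01 and -0.83 under the 14 alternatives. Aurkb, the kinase of the same complex, was at 74.2 and 67.6 CPM in Control and at 69.7 and 46.9 CPM in Prmt5 KO (-0.28 ± 0.35), with overlapping groups. Cdca8, borealin, was at 106 and 90.4 CPM in Control and at 81.9 and 85.4 CPM in Prmt5 KO (-0.23 ± 0.31), apart by a small margin. The members of this complex thus had fold changes of unequal size, a difference that was not tested. Plk1, which acts from centrosome to cytokinesis, was at 93.7 and 73.2 CPM in Control and at 56.3 and 51.6 CPM in Prmt5 KO (-0.63 ± 0.33). Aurka, the kinase of the spindle poles, was at 90.3 and 71.6 CPM in Control and at 82.9 and 59.1 CPM in Prmt5 KO (-0.19 ± 0.34). Replicate 1 was above replicate 2 in both groups for Aurka, and the groups overlapped.

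Among 5 genes of kinetochore and centromere, 4 were below 0. Cenpa, the histone H3 variant that marks the centromere, was at 189 and 241 CPM in Control and at 109.9 and 148 CPM in Prmt5 KO (-0.73 ± 0.33, adjusted p = 0.588), the only one of the 5 with both Prmt5 KO libraries below both Control libraries. Ndc80 and Nuf2 encode partners in the complex that grips microtubules, and their values went apart. Ndc80 was at 68.4 and 54.7 CPM in Control and at 59.6 and 27.2 CPM in Prmt5 KO (-0.50 ± 0.44), with overlap. Nuf2 was at 74.9 and 58.2 CPM in Control and at 82.6 and 97.7 CPM in Prmt5 KO (0.44 ± 0.33, adjusted p = 0.799), without overlap. Whether the changes of these partners differ was not tested. Cenpe, a kinetochore motor, and Cenpf had the longest transcripts of the group, and in both Control 2 and Prmt5 KO 2 were the lowest libraries. Cenpe was at 64.6 and 37.1 CPM in Control and at 46.3 and 31.3 CPM in Prmt5 KO, and Cenpf at 54.7 and 29.3 CPM and at 52.1 and 19.7 CPM.

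Of the 4 genes of the spindle checkpoint, Bub1b, Bub1 and Ttk had values further apart between the Prmt5 KO libraries than between the groups. Bub1b, BUBR1, part of the complex that blocks CDC20 (chromosome 2, 118598211 to 118641591), was at 110.1 and 74.9 CPM in Control, at 120.0 CPM in Prmt5 KO 1 and at 24.4 CPM in Prmt5 KO 2. Bub1, a kinase that recruits the other checkpoint proteins, was at 45.3 and 56.6 CPM in Control, at 58.8 CPM in Prmt5 KO 1 and at 11.6 CPM in Prmt5 KO 2. Ttk, MPS1, the kinase that starts the checkpoint, was at 19.7 and 12.2 CPM in Control, at 27.7 CPM in Prmt5 KO 1 and at 4.53 CPM in Prmt5 KO 2. In each of these genes Prmt5 KO 1 was the highest and Prmt5 KO 2 the lowest of the 4 libraries, 4.91, 5.06 and 6.11 times apart for Bub1b, Bub1 and Ttk. The exon reads behind the low values in Prmt5 KO 2 numbered 124, 59 and 23. Prmt5 KO 1 was at least 4 times Prmt5 KO 2 in these 3 of the 32 genes and in 7.06% of all genes tested, a limit chosen after the values were seen, so the share over the 32 genes was near that of all genes. Among 19 other genes of checkpoint and anaphase 0 reached this limit. Their fold changes between the groups were uncertain accordingly, at -0.35 ± 0.62, -0.52 ± 0.64 and 0.03 ± 0.80, and those of Bub1 and Bub1b turned to 0.21 and 0.38 without Prmt5 KO 2. Mad2l1, MAD2, which captures CDC20, did not show this split. It was at 62.9 and 66.9 CPM in Control and at 51.4 and 40.4 CPM in Prmt5 KO (-0.50 ± 0.35).

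Both genes that serve the anaphase-promoting complex had lower values in both Prmt5 KO libraries. Ube2c, the enzyme that loads ubiquitin, was at 115 and 118 CPM in Control and at 70.1 and 75.8 CPM in Prmt5 KO (-0.67 ± 0.31, adjusted p = 0.597). The values within a group were close together. Cdc20, the activator of the complex and the target of the checkpoint, was at 162 and 178 CPM in Control and at 152 and 133 CPM in Prmt5 KO (-0.26 ± 0.30), a difference within its error.

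The 7 genes of motors, spindle assembly and cytokinesis had a median of -0.28, and their groups mostly overlapped. Nusap1, which bundles spindle microtubules, was at 76.1 and 85.4 CPM in Control and at 63.0 and 33.9 CPM in Prmt5 KO (-0.73 ± 0.39), the only one of the 7 lower in both Prmt5 KO libraries. Kif4, a chromosome-bound motor on the X chromosome (100625737 to 100727214), went the other way, at 42.1 and 35.4 CPM in Control and at 59.0 and 62.4 CPM in Prmt5 KO (0.64 ± 0.36, adjusted p = 0.686). It was the highest fold change of the 32 and remained above 0 under each of the 14 alternatives, between 0.52 and 0.81. Kif4 overlaps Pdzd11, a gene with exon reads, so part of its reads could belong to Pdzd11. No alternative was set up to remove such reads. Kif23 and Racgap1 together form centralspindlin, which organises the cleavage furrow. Kif23 was at 54.5 and 22.5 CPM in Control and at 32.4 and 16.1 CPM in Prmt5 KO, and Racgap1 at 191 and 133 CPM and at 141 and 96.3 CPM. In both genes replicate 1 was above replicate 2 in both groups. Kif11, the motor that pushes the spindle poles apart, was at 106 and 88.5 CPM in Control and at 115 and 44.3 CPM in Prmt5 KO. Prmt5 KO 2 again stood below the other libraries. Tpx2, which activates Aurora A on the spindle, was at 133 and 115 CPM in Control and at 138 and 109.7 CPM in Prmt5 KO (-0.01 ± 0.32). Kif20a, a motor of the central spindle, was at 163 and 79.8 CPM in Control and at 146 and 109 CPM in Prmt5 KO (0.07 ± 0.40). Only 71.9% of the exon reads of Kif20a were unique to it, and with those the log2 fold change was -0.16.

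In the group of chromosome structure, Hmgb2, a DNA-bending protein, had the highest level of the 32. It was at 1040 and 1241 CPM in Control and at 685 and 744 CPM in Prmt5 KO (-0.67 ± 0.35, adjusted p = 0.644), with the groups apart. Top2a, the topoisomerase that untangles sister chromatids, was at 302 and 233 CPM in Control and at 238 and 98.8 CPM in Prmt5 KO (-0.66 ± 0.43). Prmt5 KO 1 lay between the Control libraries. Mki67, the Ki-67 protein of dividing cells, was at 206 and 93.2 CPM in Control and at 167 and 55.9 CPM in Prmt5 KO (-0.42 ± 0.54). Its libraries differed more by replicate number than by group, and without Control 1 the log2 fold change was 0.30.

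Per length of transcript, the levels spanned from 3.24 RPKM for Ttk to 424 RPKM for Hmgb2 in the mean of Control. Hmgb2, Cks2, Ccnb2, Cdc20 and Cenpa, in this order, had the highest Control levels per length, and Ccnb2, Cdc20 and Cenpa were at 94.3, 91.1 and 85.7 RPKM. The place of Cks2 is uncertain, as only 30.3% of its exon reads were unique to it. In Prmt5 KO these 5 genes also led, at 265.5, 88.5, 53.7, 76.1 and 51.5 RPKM, with Cdc20 now above Ccnb2. Ttk, Cenpf and Cenpe were the lowest in both groups, at 3.24, 3.70 and 6.29 RPKM in Control.

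The differences between libraries of a group moved with transcript length. Over all genes tested, the genes with the shortest exons (up to 2871 bases in sum) had a median log2 difference of Prmt5 KO 1 minus Prmt5 KO 2 of -0.32, and those with the longest (from 5095 bases), an equal share of the genes, had one of 0.30. For Control 1 minus Control 2 these medians were -0.21 and 0.20. Replicate 2 of each group thus held relatively fewer reads of long genes. Across the 32 genes Spearman's rho between exon length and these differences was 0.43 in Prmt5 KO and 0.53 in Control, a description over genes of the same libraries. The log2 fold change between groups also moved with length, with medians over all genes of -0.15 in the short and 0.14 in the long class. The 10, 13 and 9 mitosis genes of the short, middle and long class had medians of -0.65, -0.44 and -0.39. The corresponding medians over all genes were -0.15, 0.01 and 0.14, so the mitosis genes lay lower in each class. With a trend on length removed from each library, an alternative chosen after the data were seen, the median of the 32 genes was -0.54 with 28 below 0, and 0 passed the test.

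**Figure D4:**
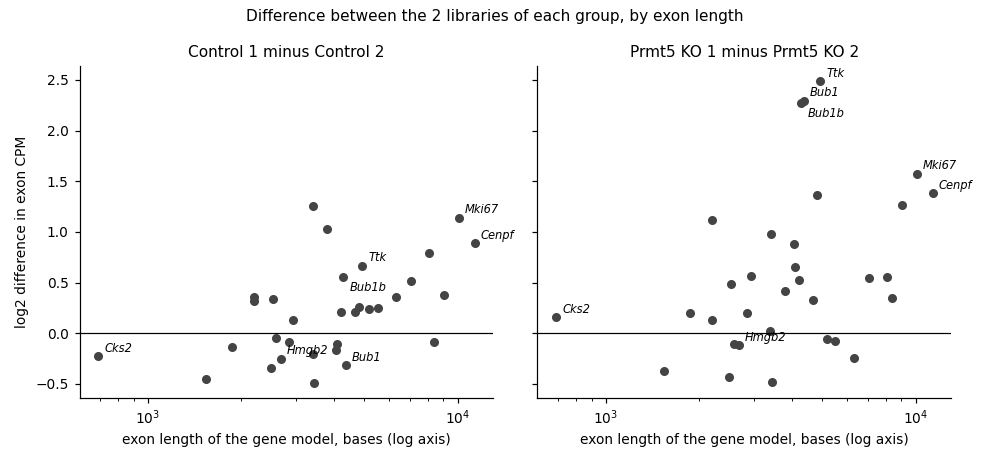
Log2 difference in exon CPM (0.5 CPM added) between the libraries of Control and of Prmt5 KO against exon length on a log axis, with 1 point for each of the 32 genes. Mki67 and Cenpf, with long exons, were higher in replicate 1 of both groups, and Ttk, Bub1 and Bub1b stood highest in the Prmt5 KO panel.

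Few reads fell in introns. Those of the 32 genes numbered 217 and 302 for Control, against 1731 and 411 for Prmt5 KO, or 0.862% and 1.64% of their reads for Control, against 3.32% and 2.89% for Prmt5 KO. Over all genes with annotated exons the share was 5.12% and 6.24% in Control and 9.03% and 7.38% in Prmt5 KO, so it was higher in both Prmt5 KO libraries there too. Only 15 of the 32 genes passed the filter on intron reads, and 0 of them were called by edgeR, as were 0% of the 6816 genes tested. Of the 15, 10 had an intron log2 fold change above 0 and 5 below, and their range was from -1.69 for Nusap1 to 3.04 for Ndc80. Nusap1 had 5 and 41 intron reads in the Control libraries, against 34 and 11 in Prmt5 KO. Cenpe, Kif11, Hmgb2 and Top2a were also below 0, at -1.06, -1.03, -1.02 and -0.97. Cenpa had 11 and 1 intron reads in the Control libraries, against 147 and 78 in Prmt5 KO, a log2 fold change of 2.60 ± 1.00 (adjusted p = 0.850 in edgeR). Its exon level went the other way, as given above. Ndc80 had 1 and 2 intron reads in the Control libraries, against 43 and 27 in Prmt5 KO (3.04 ± 1.40, adjusted p = 0.853). Exon reads crossing a junction made up 66.3% and 67.5% of the exon reads of the 32 genes in Control and 65.2% and 65.5% in Prmt5 KO.

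Genes with and without both promoter motifs had medians close to each other, a description with no test. In the 19 genes with a CHR and a CCAAT box in the window the median was -0.45 (log2 fold change), with 17 of them below 0 and 9 with both Prmt5 KO libraries below both Control libraries. The 9 genes whose window lacked one or both had a median of -0.50, with 8 below 0 and 4 so separated. Of all genes tested, 50% were below 0 and 19% were so separated. Ccna2, Kif20a, Aurkb and Tpx2 had no window in the table used.

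**Figure D5:**
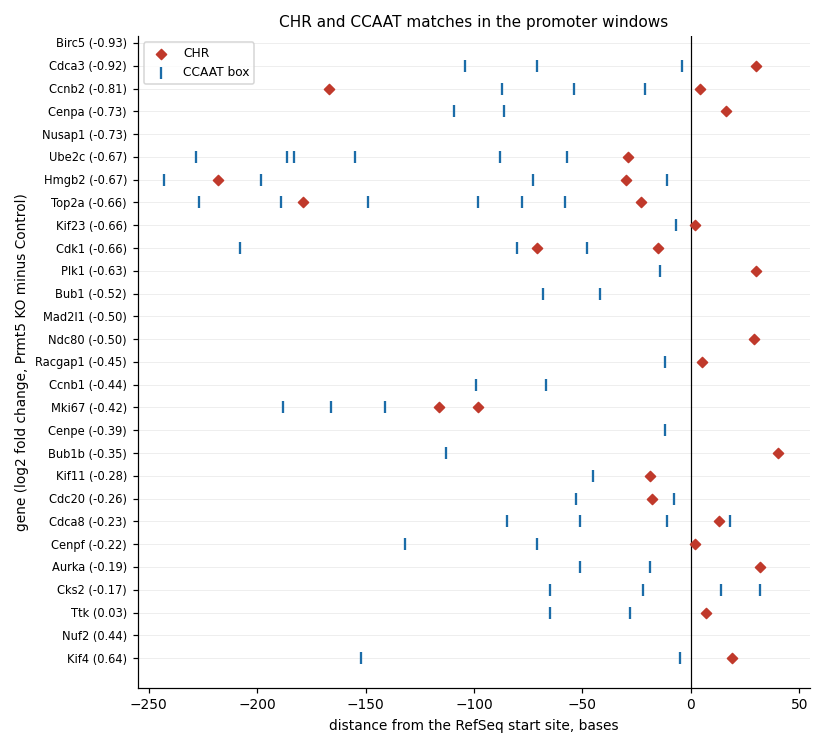
Positions of CHR matches (diamonds) and CCAAT matches (bars) in the 28 promoter windows, as distance from the RefSeq start site in bases, with genes ordered by log2 fold change (in brackets). CHR matches lay close to the start site, 19 of 25 within 50 bases, in genes across the range from Cdca3 at -0.92 to Kif4 at 0.64.

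Of 120 other genes of G2 and mitosis, 119 were tested, and their median was nearer 0. Their median log2 fold change was -0.13, with 74 below 0, and 0 passed an adjusted p of 0.05. Both Prmt5 KO libraries lay below both Control libraries in 29 of them, or 24.4%, near the 19% of all genes, and above both in 7, or 5.88%, against 20.5%. Cdkn3, a phosphatase that acts on CDKs, was at 19.7 and 16.7 CPM in Control and at 2.91 and 6.69 CPM in Prmt5 KO (-1.94 ± 0.72, adjusted p = 0.469). Ncapg, a condensin subunit, was at 58.1 and 57.5 CPM in Control and at 34.2 and 15.2 CPM in Prmt5 KO (-1.21 ± 0.47, adjusted p = 0.491). Lmnb1, lamin B1 of the nuclear envelope, was at 216 and 135 CPM in Control and at 96.7 and 89.8 CPM in Prmt5 KO, and Mad1l1, the partner of MAD2, at 75.6 and 71.8 CPM and at 42.0 and 37.0 CPM. Each of these 4 genes was lower in both Prmt5 KO libraries, without passing the adjusted threshold. Gtse1, a G2 and S phase gene that restrains p53, had higher values in both Prmt5 KO libraries, at 49.8 and 64.8 CPM in Control and at 121 and 90.0 CPM in Prmt5 KO (0.88 ± 0.34, adjusted p = 0.492). The factors that transcribe or silence these genes had a median of -0.00032 on the log2 scale over 13 tested genes. Cdkn1a, which encodes p21, was not in this list and was added because its change was known from earlier results. It was at 1.06 and 0.939 CPM in Control and at 26.8 and 30.1 CPM in Prmt5 KO (4.80 ± 0.69, adjusted p = 0.0561, edgeR). Mybl2, B-MYB, was at 49.2 and 69.5 CPM in Control and at 35.2 and 37.6 CPM in Prmt5 KO (-0.70 ± 0.38). Foxm1 was at 79.3 and 56.1 CPM in Control, at 77.5 CPM in Prmt5 KO 1 and at 12.8 CPM in Prmt5 KO 2, the same split between the Prmt5 KO libraries as in Bub1, Bub1b and Ttk. Among the S phase genes 25 of 30 were below 0, with a median of -0.28. Both Prmt5 KO libraries lay below both Control libraries in 12 of these 30, or 40%, a share close to the 14 of 32 mitosis genes, and above both in 1.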

How the data were processed

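RNA of 4 libraries was read on an Ion Proton after SMART-seq v4 amplification, per the labels' protocols. The authors deposited unnormalized read counts per gene, exon, intron and exon-exon junction for 46517 genes, from single trimmed reads per the file headers. The submitters' processing notes name mm10 and edgeR. The sources used here give no mapper, annotation or strand setting. Groups followed the titles.

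Exon read counts of the 10775 genes that filterByExpr kept were TMM-scaled. Group was the only term of the quasi-likelihood test (edgeR 4.0.16, R 4.3.3), and Benjamini-Hochberg adjustment ran over all genes (threshold 0.05). SE was derived as absolute log2 fold change divided by the root of F. Intron reads were tested likewise (6816 genes). RPKM divides scaled exon reads by the exon length in the table. DESeq2 1.42.0 and limma 3.58.1 were alternatives. The fit was tested on simulated data. The 32 genes and the other lists were chosen with earlier results of these data known. All 32 genes were to be described. Of each other list at most the 4 with the smallest p and the 2 most abundant were to be named, with any transcription factor of the list. More marker genes than this are named above. Cdkn1a was added for a change known from earlier results, and Prmt5 as the targeted gene. The most shallow library had 4600799 exon reads, where 1 read is worth 0.217 CPM. PCR copies cannot be told from molecules here, as there were no molecular identifiers. Of the 32 genes, 7 overlap another gene with exon reads (Ccna2, Cdca8, Cdc20, Ube2c, Kif20a, Kif4 and Nusap1), so part of their reads could belong to it. Unique reads made up 71.6% of the exon reads of Ccnb1, 81.2% of Hmgb2 and 89.8% of Ccna2. Of the gene models, 25 matched GENCODE M21 in start and end. Positions start at 1, and promoter sequences are from RefSeq on GRCm38.p6.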

Additional observations from a re-analysis of the deposited data

How the results depend on the processing

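No member passed an adjusted p of 0.05 under any of the 14 alternatives for exon reads or the 11 for intron reads. The smallest for exon reads came with replicate number added as a block in edgeR, 0.0557 for Birc5 and 0.0676 for Ccna2. In the main edgeR fit these were 0.412 and 0.462. Of 448 member values under alternatives 25 had the opposite sign, in 12 of the 32 genes, and the cause was not tested. All genes called went from 0 higher and 1 lower to 110 and 105 without a filter on low counts, 93 and 78 in DESeq2, 1 and 12 in limma-voom, 5 and 9 with total gene reads and 2 and 6 with the length trend removed. With the replicate block they were 180 and 182, with 1 S phase gene called. Same-numbered libraries deviated together with r = 0.18 over genes, which with 2 pairs and no label on pairing leaves the numbers as names. Members with an unadjusted p under 0.05, all lower, numbered 4, and 2 with library size alone and 11 with the replicate block. Leaving out 1 library gave 0 to 10 such members, 0 to 13 genes called higher and 1 to 24 lower. It gave member medians of -0.69 to -0.16, S phase medians of -0.39 to -0.13, a log2 ratio of the summed level of -0.67 to -0.34 (-0.50 with all), and intron medians of -0.37 to 0.75 (0.38 with all, 0.85 with library size alone). Signs turned for Tpx2 with library size alone (0.090) and no filter (0.011), for Ttk in limma-voom (-0.032), with the replicate block (-0.41) and the length trend removed (-0.077), for Kif20a with unique exon reads (-0.16) and total gene reads (-0.014), and for Cks2 with the length trend removed (0.21). With 1 library left out the log2 fold changes ranged from -0.45 to 0.037 for Aurka, -0.74 to 0.10 for Cenpe, -1.09 to 0.33 for Cenpf, -2.12 to 0.21 for Bub1, -1.92 to 0.38 for Bub1b, -1.81 to 0.79 for Ttk, -1.13 to 0.25 for Kif11, -0.36 to 0.71 for Kif20a, -1.26 to 0.15 for Kif23, -0.17 to 0.15 for Tpx2 and -1.42 to 0.30 for Mki67. Low reads limit Ttk, with 23 exon reads in Prmt5 KO 2, and the intron values.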

Other observations

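Prmt5 KO 1 was at least 4 times Prmt5 KO 2 in 10 of the 119 other G2 and mitosis genes tested, or 8.40%, near the 7.06% of all genes tested. None were among the 30 genes of kinetochore and centromere, the 19 of checkpoint and anaphase or the 19 of condensin and cohesin. The genes named next were picked after their values were seen. Among the 10 were Cdc25c, a phosphatase that activates CDK1, at 16.9 CPM in Prmt5 KO 1 and 1.18 CPM in Prmt5 KO 2, and Pkmyt1, a kinase that restrains CDK1, at 33.5 and 2.17 CPM in these libraries. Kif18a and Kif20b, motors of the spindle and the midbody, were at 24.5 and 4.13 CPM and at 41.8 and 7.48 CPM, likewise in Prmt5 KO 1 and Prmt5 KO 2. Prmt5 KO 2 was the lowest of the 4 libraries for 23 of the 32 genes described above, or 71.9%, for 55.5% of the 119 and for 56.7% of the S phase genes, and for 28.5% of all genes tested.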
